A study of Mus musculus with 9 samples.

Results

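Ctla4, Cd28 and Icos encode CTLA-4, CD28 and ICOS, receptors of the CD28 family, and the 3 genes were taken by symbol from a table of 24060 mouse genes in peptide-activated CD8 T cells. The cells came from transnuclear mice of the lines R7-I, R7-II and R7-III on a BALB/c background, Rag2 proficient and CD90.2+, each of which carries the T cell receptor of a single CD8 T cell specific for ROP7, a protein of the parasite Toxoplasma gondii, so that each line stands for 1 clone and each clone for 1 receptor. According to the labels, affinity for the ROP7 peptide falls in the order R7-I, R7-III, R7-II, and self-reactivity in the order R7-III, R7-I, R7-II. In all 9 samples, splenocytes were cultured overnight in recombinant mouse IL-2 (10 ng/ml) and ROP7 peptide (10 µM), and live CD3+ CD8+ cells that bound the H-2Ld-ROP7 tetramer were sorted to a stated purity of 90 to 95%, so that the gate itself selects through the T cell receptor. There were 3 libraries per clone, called biological replicates in the labels, which do not say whether they came from separate mice, and p-values therefore measure only the spread between these libraries, which may be technical. Ages of the mice are not given in the sources used here, and cells kept without peptide were not analysed here.

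CD28 is the constitutive costimulatory receptor of naive T cells: it binds CD80 and CD86 on antigen-presenting cells and, together with the T cell receptor, promotes IL-2 production, glucose uptake and survival. CTLA-4 appears after activation, binds the same ligands with higher affinity, removes them from the presenting cell, and sits mostly in vesicles inside the T cell, so that its messenger RNA is not a measure of its surface level. ICOS is also induced by activation, binds ICOSL, and signals mainly through PI3-kinase. The comparison addressed how the messenger RNA of these costimulatory and inhibitory receptors differed between clones that recognise the same peptide with different strength.

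All 3 receptor genes were higher in R7-II, the clone of lowest affinity, than in the other clones, and the size of the difference was graded, with Ctla4 about 5-fold, Icos about 2-fold and Cd28 about 1.4-fold. R7-I and R7-III did not pass the test against each other for any of the 3 genes. Levels are given in TPM, the share of a library's transcripts that a gene takes, corrected for transcript length, and folds on the log2(TPM + 1) scale, which understates changes of low genes. Genes were tested with limma over the 11330 genes whose highest TPM was above 1, adjusted by Benjamini-Hochberg and called at an adjusted p of at most 0.01. All 3 receptor genes were among them. Reads per library cannot be read from TPM values, so no counting interval is given. In bulk RNA, fewer cells with a transcript and less of it per cell cannot be told apart.

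Ctla4 lies on chromosome 1 at chr1:60909025-60915832 of mm10, on the plus strand. The R7-II libraries held 61.5, 60.3 and 66.1 TPM of Ctla4. The R7-I libraries held 12.1, 10.3 and 13.3 TPM, and the R7-III libraries 12.9, 12.1 and 15.2 TPM. Every R7-II library therefore lay far above the other 6, while R7-I and R7-III overlapped. The mean was 62.6 ± 3.05 TPM in R7-II, 11.9 ± 1.54 TPM for R7-I and 13.4 ± 1.63 TPM for R7-III (SD, n = 3 each). The ratio of mean TPM was 5.27 for R7-II over R7-I and 4.67 for R7-II over R7-III. The log2 fold change of Ctla4 was 2.31 against R7-I (SE 0.0969; 95% confidence interval 2.10 to 2.52; adjusted p = 3.94e-08 from limma with Benjamini-Hochberg adjustment). Against R7-III it was 2.15 (95% confidence interval 1.93 to 2.36; limma adjusted p = 7.11e-08). Among the 11330 genes tested, Ctla4 had the 47th largest positive log2 fold change against R7-I and the 60th against R7-III. R7-III exceeded R7-I in Ctla4 by a log2 fold change of 0.16, with a 95% confidence interval of -0.05 to 0.38 (limma adjusted p = 0.287).

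Cd28, at chr1:60746388-60773359 on the plus strand, was the most abundant of the 3 receptor transcripts in every library. The R7-II libraries held 253, 238 and 234 TPM of Cd28. In R7-I it was measured at 168, 152 and 179 TPM, and in R7-III at 170, 176 and 180 TPM. The lowest R7-II library lay above the highest of the other 6, and R7-I and R7-III overlapped. Mean levels were 242 ± 10.1 TPM in R7-II, 166.5 ± 13.2 TPM for R7-I and 175.5 ± 5.13 TPM for R7-III (SD, n = 3 each), so that R7-II held 1.45 times the R7-I level and 1.38 times the R7-III level. The log2 fold change of Cd28 was 0.54 against R7-I (SE 0.0539; 95% confidence interval 0.42 to 0.66; limma adjusted p = 9.19e-06). Against R7-III it was 0.46 (95% confidence interval 0.34 to 0.58; limma adjusted p = 2.96e-05). These changes of Cd28 ranked 2210th and 2294th of 11330 among log2 fold changes from the highest down. For R7-III against R7-I the log2 fold change of Cd28 was 0.08 (95% confidence interval -0.04 to 0.20; limma adjusted p = 0.356).

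Icos, at chr1:60960773-61000322 on the plus strand, stood between the others in abundance and in change. The R7-II libraries held 75.5, 79.9 and 83.3 TPM of Icos. The R7-I libraries were at 39.1, 35.9 and 37.0 TPM, and the R7-III libraries at 33.6, 35.4 and 33.9 TPM. R7-II again lay above the other 6 libraries, and here R7-III lay below R7-I without overlap, although the gap between the nearest libraries was small. The mean was 79.6 ± 3.92 TPM in R7-II, 37.4 ± 1.65 TPM for R7-I and 34.3 ± 1.00 TPM for R7-III (SD, n = 3 each), which gave ratios of 2.13 and 2.32 for R7-II over R7-I and R7-III. The log2 fold change of Icos was 1.07 against R7-I (SE 0.0483; 95% confidence interval 0.96 to 1.18; limma adjusted p = 6.13e-08) and ranked 596th of 11330. Against R7-III it was 1.19 (95% confidence interval 1.08 to 1.30; limma adjusted p = 5.65e-08) and ranked 382nd. For Icos, R7-III minus R7-I came to a log2 fold change of -0.12 (95% confidence interval -0.23 to -0.01), which missed the threshold after adjustment over all genes (limma adjusted p = 0.115). Libraries of R7-III and R7-I did not overlap for 41.9% of all genes tested, so the separation of Icos in this comparison is common in these data.

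**Figure D1:**
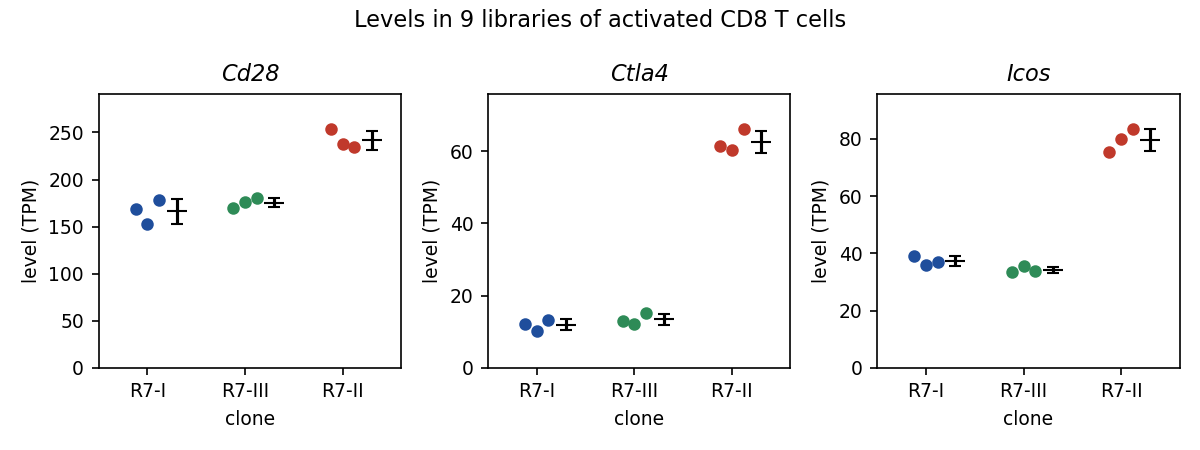
Level of Cd28, Ctla4 and Icos (TPM, vertical axes from 0) in each of the 9 libraries, by clone. Coloured points are libraries and the black mark with bars is the mean ± SD of 3 libraries: for each gene the 3 R7-II libraries lie above the other 6.

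A large part of the transcriptome differed in R7-II, and the receptor genes are to be read against that. Of 11330 genes tested, 56.1% passed between R7-II and R7-I, 40.6% as higher and 15.5% as lower in R7-II. Against R7-III 53.6% passed, 35.6% as higher and 18.0% as lower. The 3 R7-II libraries lay above the other 6 without overlap for 41.7% of genes, and 31.9% of genes passed as higher than both other clones, as Ctla4, Cd28 and Icos did. Between R7-III and R7-I 8.41% of genes passed, 6.96% as higher and 1.45% as lower in R7-III, none of the 3 receptor genes among them. The split of passing genes depended on scaling: 72.4% of those passing against R7-I and 66.4% of those passing against R7-III were higher in R7-II, but 50.9% and 50.2% were when a median-of-ratios factor scaled each library. Over all genes the median log2 fold change was 0.17 for R7-II minus R7-I and 0.12 for R7-II minus R7-III. Relative to that shift, Ctla4 was higher by 2.14 and 2.03, Icos by 0.90 and 1.07, and Cd28 by 0.37 and 0.34 on the log2 scale.

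**Figure D2:**
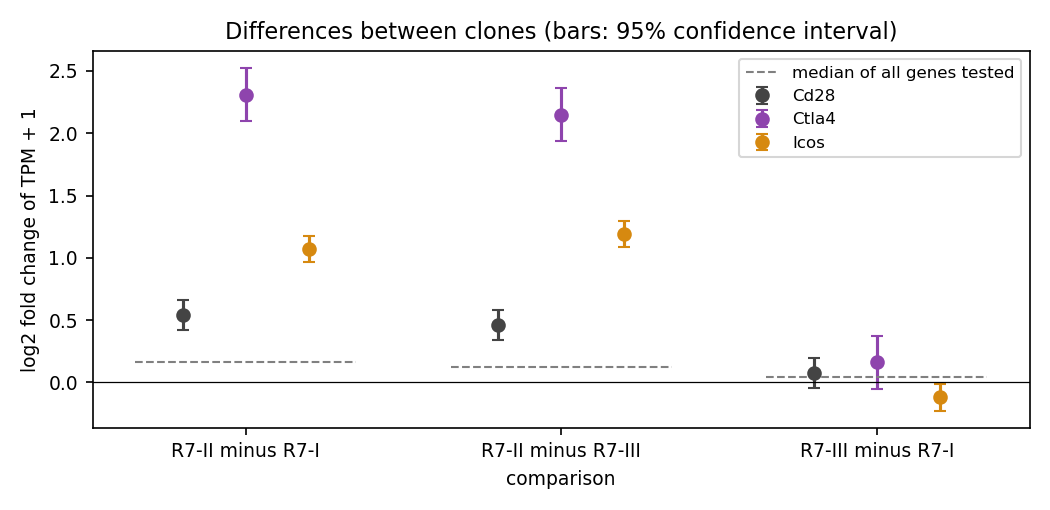
Log2 fold change of TPM + 1 (vertical axis) of Cd28, Ctla4 and Icos in the 3 comparisons of clones, with 95% confidence intervals from limma; dashed lines give the median of all 11330 genes tested. Ctla4 stands highest in both R7-II comparisons at 2.31 and 2.15, and the Ctla4 and Cd28 intervals of R7-III minus R7-I include 0.

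Each gene was also tested over the 3 clones at once, with an exact permutation test of the F statistic over all 1680 assignments of the libraries, in which the smallest possible p is 0.00357 and the threshold was an adjusted p of at most 0.05. The exact permutation p was 0.0143 for Ctla4, 0.0143 for Cd28 and 0.00357 for Icos, and 0.0143, 0.0143 and 0.0107 after Benjamini-Hochberg adjustment over 6 values, these genes and their ratios, so that none would pass at 0.01. Set against T cell genes measured in the same library, the difference between R7-II and the mean of the other clones remained 1.98 for Ctla4 and 0.88 for Icos relative to Cd8a, and 1.87 and 0.77 relative to Cd3e. For Cd28 it shrank from 0.50 to 0.25 relative to Cd8a and to 0.14 relative to Cd3e, which encodes a chain of the T cell receptor complex that was itself higher in R7-II (adjusted exact permutation p = 0.0393 for each).

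The level of one receptor gene as a percent of another in the same library shows whether the receptors changed unequally. Ctla4 reached 24.3, 25.3 and 28.2% of the Cd28 level in the R7-II libraries. In R7-I it was at 7.18, 6.73 and 7.45% of Cd28, and in R7-III at 7.56, 6.88 and 8.45%. R7-II stood apart from both other clones, which overlapped. The means were 25.9 ± 2.04% in R7-II, 7.12 ± 0.362% in R7-I and 7.63 ± 0.788% in R7-III (SD, n = 3 each). The tested value was the difference of log2(TPM + 1) between Ctla4 and Cd28. It was 1.73 higher in R7-II than in the mean of the other clones, and this lay between 1.45 and 1.81 over the other pseudocounts, scaling and libraries left out. Tested over the 3 clones at once, the exact permutation p was 0.0143 (adjusted p = 0.0143).

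Icos also gained on Cd28: it was at 33.0 ± 2.92% of the Cd28 level in R7-II, 22.5 ± 1.56% in R7-I and 19.6 ± 0.692% in R7-III (SD, n = 3 each). The difference of log2(TPM + 1) between Icos and Cd28 was 0.63 higher in R7-II than in the mean of the others. Over the 3 clones at once its exact permutation p was 0.00357 (adjusted p = 0.0107). That test also counts the difference between R7-I and R7-III, whose libraries did not overlap in this ratio. Ctla4 in turn gained on Icos and reached 78.7 ± 3.02% of its level in R7-II, against 31.8 ± 3.77% in R7-I and 39.2 ± 5.46% in R7-III. That difference on the same scale was 1.098 higher in R7-II than in the mean of the others. Its exact permutation p over the 3 clones, which again counts R7-I against R7-III too, was 0.00714 (adjusted p = 0.0143). The 3 transcripts together summed to 384 ± 6.001 TPM in R7-II, 216 ± 15.6 TPM for R7-I and 223 ± 6.44 TPM for R7-III. Cd28 made up 63.0% of that sum in R7-II, 77.2% in R7-I and 78.6% in R7-III, and Ctla4 16.3, 5.50 and 5.999%. Icos took 20.7, 17.4 and 15.4% in the same order.

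**Figure D3:**
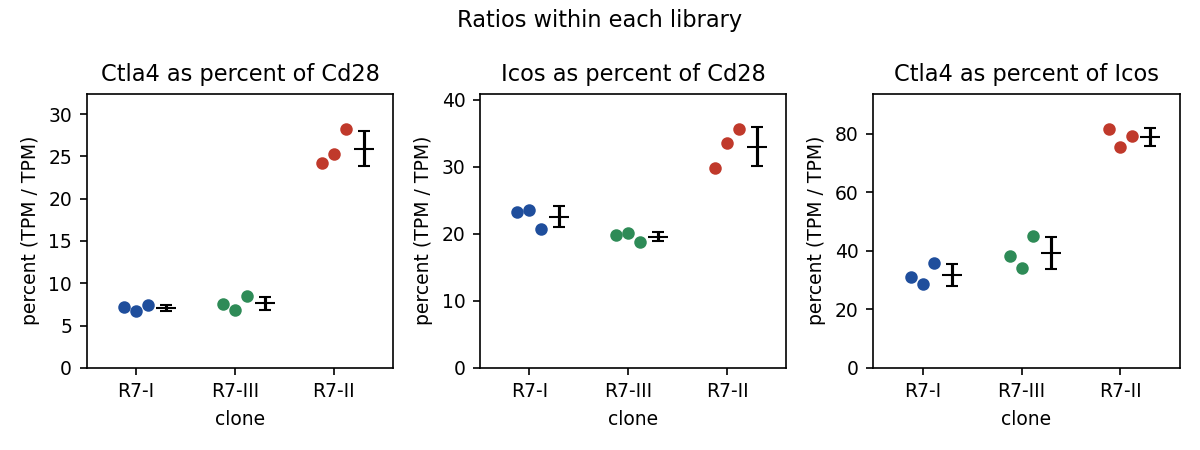
Level of one receptor gene as a percent of another in the same library (vertical axes from 0), by clone; points are libraries and the black mark with bars is the mean ± SD of 3. Ctla4 lies at 24.3 to 28.2% of Cd28 in R7-II and at 6.73 to 8.45% in the other 6 libraries.

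The receptor genes are neighbours and are read in the same direction, in the order Cd28, Ctla4, Icos. The distance from the end of Cd28 to the start of Ctla4 is 135.7 kb and from the end of Ctla4 to the start of Icos 44.9 kb, and the whole stretch spans 253.9 kb (RefSeq annotation of GRCm38.p6, the same build as mm10). From 500 kb before Cd28 to 500 kb after Icos the annotation holds 24 genes, mostly pseudogenes and long noncoding RNAs. The table gave values for 8 of them and 7 were tested, the receptor genes and 4 genes before Cd28. These 4 did not move with the receptors as a group.

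Raph1, which encodes lamellipodin, a regulator of actin at the cell edge, is the nearest to Cd28 of the tested genes before it. It fell in R7-II, from means of 8.13 TPM for R7-I and 8.81 TPM for R7-III to 4.54 TPM, with log2 fold changes of -0.72 and -0.82 (limma adjusted p = 1.49e-05 and 6.26e-06). Cyp20a1, an orphan cytochrome P450 gene, fell with log2 fold changes of -0.36 and -0.28 (limma adjusted p = 1.26e-04 and 6.41e-04). The R7-II libraries of both genes lay below the other 6, as did those of 17.4% of all genes tested. Of all genes, 15.5% passed as lower in R7-II against R7-I and 18.0% against R7-III. Abi2, an actin regulator of the WAVE complex, had log2 fold changes of -0.30 and -0.51 (limma adjusted p = 8.32e-03 and 2.82e-04), the first of which did not pass when any library other than R7-II replicate 1 or R7-III replicate 3 was left out (adjusted p 0.0113 to 0.0338). Abi2 and Raph1 overlap on opposite strands and the reads carry no strand, so reads of the shared stretch cannot be assigned by strand. Nbeal1 moved the other way, with log2 fold changes of 0.42 and 0.22 at 2.03 to 3.05 TPM, of which the first passed (limma adjusted p = 4.53e-03 and 0.0794) but not after median-of-ratios scaling (0.30, adjusted p = 0.0172) or without R7-I replicate 1 or 2 or R7-II replicate 1 (adjusted p 0.0169 to 0.0204). After Icos, the long noncoding RNA gene 9530026F06Rik had too low a level to be tested.

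**Figure D4:**
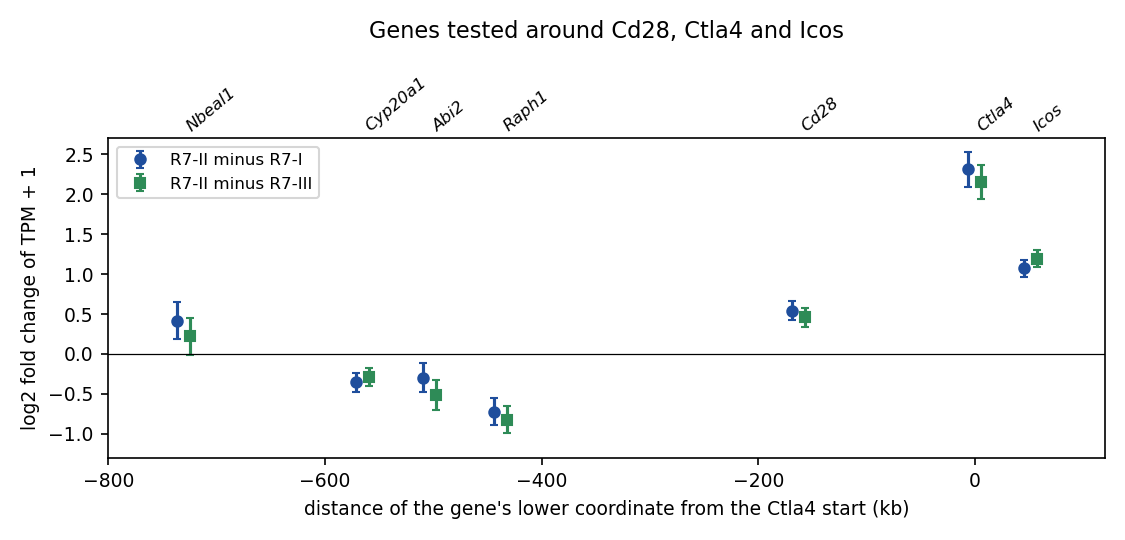
Log2 fold change of TPM + 1 with 95% confidence intervals (vertical axis) of the 7 genes tested around the receptor genes, against the distance in kb of each gene from the start of Ctla4 (horizontal axis). Cd28, Ctla4 and Icos lie above 0 and Cyp20a1, Abi2 and Raph1 below it in both R7-II comparisons.

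The sequence before Ctla4 is shown because it is the receptor gene with the largest difference and the one with an entry in the promoter table used. It is the 250 bases before the RefSeq start, at chr1:60908775-60909024 of GRCm38.p6 on the plus strand, with capitals marking TTTCC, which reads GGAAA, the core bound by NFAT, on the other strand.
Ctla4: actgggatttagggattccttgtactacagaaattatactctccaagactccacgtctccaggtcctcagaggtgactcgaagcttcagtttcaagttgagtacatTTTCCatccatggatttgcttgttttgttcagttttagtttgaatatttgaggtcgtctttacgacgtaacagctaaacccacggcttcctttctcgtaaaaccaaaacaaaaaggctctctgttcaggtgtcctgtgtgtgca
Both strands were searched for GGAAA, and for TGTTT, a core of forkhead sites, for TGANTCA, an AP-1 site, for CACCC, a core of Kruppel-like factor sites, and for TATAAA, the TATA box. GGAAA occurred 1 time, at -144 to -140 from the start, and it is held by 55.6% of 32851 promoters of the same length. TGTTT occurred 2 times and is held by 46.4% of promoters. No match was found to the AP-1 site, held by 6.7% of promoters, to the Kruppel-like core, held by 52.0%, or to the TATA box, held by 12.4%. These are matches of letters in this window and not measured binding.

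Ligand transcripts were scarce in the sorted cells. Cd80 and Cd86 encode the shared ligands of CD28 and CTLA-4, and Icosl the ligand of ICOS. Icosl was at 2.31, 1.45 and 2.01 TPM in R7-II, against 0.69, 1.25 and 0.53 TPM for R7-I and 0.79, 0.57 and 0.67 TPM for R7-III. R7-II lay above the other libraries, with log2 fold changes of 0.69 and 0.79 (limma adjusted p = 3.86e-03 and 1.73e-03), but the change against R7-I did not pass without R7-I replicate 1 or 3 or R7-II replicate 1 or 3 (adjusted p 0.0126 to 0.0181). Cd80 was at a mean of 2.56 TPM in R7-II, 1.17 TPM for R7-I and 2.23 TPM for R7-III, and passed against R7-I (0.71, limma adjusted p = 1.24e-03) but not against R7-III (0.15, adjusted p = 0.381). Cd86 stayed below 1.2 TPM in every library and passed against R7-III (0.61, limma adjusted p = 5.79e-03) but in the R7-I comparison was at 0.37 (adjusted p = 0.0562), and the call was lost without R7-II replicate 2 or R7-III replicate 1 or 2 (adjusted p 0.0146 to 0.0224).

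Of 20 genes for proteins that bind CD28 or carry its signal, 19 were tested, of which 14 rose and 2 fell in R7-II against R7-I, and 15 rose and 2 fell against R7-III. Their median log2 fold change was 0.39 and 0.40, beside 0.17 and 0.12 over all genes, of which 40.6% and 35.6% rose. Grap2, which encodes the adaptor GADS that binds the CD28 tail, rose from means of 55.2 TPM for R7-I and 52.8 TPM for R7-III to 113 TPM in R7-II, with log2 fold changes of 1.02 and 1.08 (limma adjusted p = 7.68e-07 and 4.96e-07). Pik3cd, the PI3-kinase catalytic subunit of lymphocytes, rose by 0.89 and 1.00. Flna, an actin-binding partner of CD28, rose by 0.93 and 0.80. The gene of the kinase Lck rose less, by 0.39 and 0.45. Malt1, a protease of NF-kappa-B signalling, and Akt1 were the genes that fell, with log2 fold changes of -0.82 and -0.62 for Malt1 and of -0.18 and -0.32 for Akt1. Carmil2, another partner of CD28, was not analysed here.

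The genes linked to CTLA-4 trafficking and to the phosphatases that bind its tail gave a mixed picture. Of 15, 14 were tested, of which 6 rose and 1 fell against R7-I, and 5 rose and 1 fell against R7-III, with median log2 fold changes of 0.13 and 0.04 beside 0.17 and 0.12 over all genes. Of all genes tested 40.6% and 35.6% rose in these comparisons, so the number that rose was close to the background. After median-of-ratios scaling 4 rose and 6 fell against R7-I, and 4 rose and 5 fell against R7-III. Lax1, a membrane adaptor, rose by 1.24 and 0.79, and Def6, linked to the recycling of CTLA-4 vesicles, by 0.78 and 0.50 (limma adjusted p = 2.15e-07 and 4.08e-06). Ppp2r5c, a regulatory subunit of the phosphatase PP2A, rose by 0.52 and 0.45, and Lrba, whose protein keeps CTLA-4 from degradation in lysosomes, by 0.36 and 0.26, the second of which did not pass without R7-III replicate 1 or after median-of-ratios scaling. The abundant genes of the list moved little: Ap2m1, the clathrin adaptor subunit that binds the CTLA-4 tail for endocytosis, had log2 fold changes of 0.12 and -0.02, Arf1 -0.13 and -0.04, and the PP2A scaffold gene Ppp2r1a -0.05 and -0.03. Of these, Ap2m1 and Arf1 passed against R7-I (limma adjusted p = 7.37e-03 and 6.65e-04), but Ap2m1 did not pass there with any library other than R7-II replicate 3 left out (adjusted p 0.0107 to 0.0258) and turned to -0.039 after median-of-ratios scaling. Ptpn6, the gene of SHP-1, was lower in R7-II than in R7-III (-0.42, limma adjusted p = 3.57e-05) and against R7-I it missed the threshold (-0.08, adjusted p = 0.177), which it passed with median-of-ratios scaling (-0.24, adjusted p = 5.06e-03).

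Among 11 genes of Icos messenger RNA decay and of PI3-kinase signalling below ICOS, 8 rose in R7-II against R7-I and the other 3 did not pass, and 10 rose against R7-III and 1 did not pass, with median log2 fold changes of 0.43 and 0.48 beside 0.17 and 0.12 over all genes, of which 40.6% and 35.6% rose. After median-of-ratios scaling 7 rose in either comparison and 1 fell against R7-I, where 27.8% and 26.7% of all genes rose. Pik3ip1, an inhibitor of PI3-kinase at the cell surface, changed most: it was at 41.0, 26.1 and 36.7 TPM in R7-II, and at 2.46 to 3.97 TPM in the other 6 libraries. Its log2 fold changes were 3.08 and 3.05 (limma adjusted p = 1.36e-07 and 1.67e-07) beside 2.31 and 2.15 for Ctla4. Zc3h12d, a member of the Regnase family of RNA-degrading proteins, rose by 1.21 and 1.33, and Tbk1, a kinase that binds the ICOS tail, by 0.73 and 0.65. Rc3h1, which encodes Roquin-1, the protein known to promote decay of Icos messenger RNA, lay at 24.2 to 27.8 TPM in R7-II, 25.8 to 27.2 TPM for R7-I and 22.0 to 23.9 TPM for R7-III and did not pass in either R7-II comparison (-0.03 and 0.15, limma adjusted p = 0.672 and 0.0450), although median-of-ratios scaling made it pass as lower than R7-I (-0.18, adjusted p = 6.48e-03). Its close relative Rc3h2 rose by 0.36 and 0.48, the first of which was lost with that scaling and when R7-I replicate 2 was left out (adjusted p 0.0205 and 0.0117).

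Of 22 transcription factor genes linked to these loci or to T cell activation, 10 rose and 6 fell in R7-II against R7-I, and 10 rose and 7 fell against R7-III (4 without R7-III replicate 2). Their median log2 fold change was 0.15 and 0.19, beside 0.17 and 0.12 over all genes. Over all genes 40.6% rose and 15.5% fell against R7-I, and 35.6% rose and 18.0% fell against R7-III, so the number that rose against R7-I was close to the background. Tbx21, which encodes T-bet, the effector factor of CD8 T cells, fell from means of 45.6 TPM for R7-I and 49.7 TPM for R7-III to 5.25 TPM in R7-II, with log2 fold changes of -2.94 and -3.05 (limma adjusted p = 2.31e-07 and 2.02e-07). Ets1, a factor of resting lymphocytes, rose by 1.36 and 1.25, Egr1 by 0.85 and 0.84 and Fos by 0.87 and 0.78. The abundant genes Nfkb1 (-0.37 and -0.16), Irf4 (-0.31 and -0.21) and Stat5a (-0.40 and -0.25) fell, the second value of Irf4 and of Stat5a not passing without R7-III replicate 2 or 3 for Irf4 (adjusted p 0.0127 and 0.0167) and without R7-II replicate 1 or 2 or R7-III replicate 1 or 2 for Stat5a (0.0101 to 0.0150). NFAT and Foxo1 have been linked to Ctla4. Nfatc1, Nfatc2 and Nfatc3 had positive log2 fold changes in both R7-II comparisons, not all of which passed, and Nfat5 had negative ones. Nfatc3 rose by 0.57 and 0.46 and Foxo1 by 0.81 and 0.82. Nfatc2 rose by 0.46 and 0.28, the second of which was lost with median-of-ratios scaling (adjusted p = 0.0382) and when R7-II replicate 1 or 2 or any 1 R7-III library was left out (0.0119 to 0.0167). Nfatc1, the most abundant NFAT gene, passed against R7-I (0.22, limma adjusted p = 6.38e-04), though with median-of-ratios scaling it did not (0.07, adjusted p = 0.124), and not against R7-III (0.13, adjusted p = 0.0166). Nfat5, at a mean of 88.6 TPM over the 9 libraries, fell against R7-I (-0.27, limma adjusted p = 1.13e-03) and missed the threshold against R7-III (-0.16, adjusted p = 0.0209).

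Most genes of a list known to rise with CD28 costimulation were lower in R7-II. This clone also has the lowest affinity for the peptide, and all cultures held IL-2. The parts of CD28, T cell receptor and IL-2 in these genes were not tested and cannot be told apart here. Of 16 tested, 13 fell in R7-II against R7-I and the other 3 did not pass, and 12 fell against R7-III and 4 did not pass, with median log2 fold changes of -0.31 and -0.43. With single libraries left out, 9 to 13 fell against R7-I and 10 to 13 against R7-III. Over all genes 15.5% fell against R7-I and 18.0% against R7-III. Slc3a2, a subunit of amino acid transporters, was at 0.15 and 0.07 and did not pass (limma adjusted p = 0.0177 and 0.199), but without R7-II replicate 2 it rose against R7-I (0.20, adjusted p = 1.41e-03). Il2 was at 35.8, 58.1 and 52.3 TPM in R7-II, against 145, 147 and 167 TPM for R7-I and 186, 176 and 226 TPM for R7-III, with log2 fold changes of -1.66 and -2.01 (limma adjusted p = 5.19e-06 and 1.38e-06). Ifng, the effector cytokine interferon-gamma, fell with log2 fold changes of -2.04 and -1.76. Bcl2a1d, a survival gene of the Bcl-2 family whose near-identical copies can share its reads, had log2 fold changes of -0.97 and -0.87, and Hk2, the glycolytic enzyme hexokinase 2, of -0.84 and -0.73. Il2ra, the IL-2 receptor alpha chain, was at -0.54 and -0.46. Cdk4 and Ccnd2, of the cell cycle, were at -0.28 and -0.42 and at -0.33 and -0.41 (the first of Ccnd2 not passing without R7-I replicate 3), and Myc at -0.25 and -0.13, the last not passing without R7-II replicate 1 or 2 or R7-III replicate 1 or 2 (adjusted p 0.0169 to 0.0251).

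**Figure D5:**
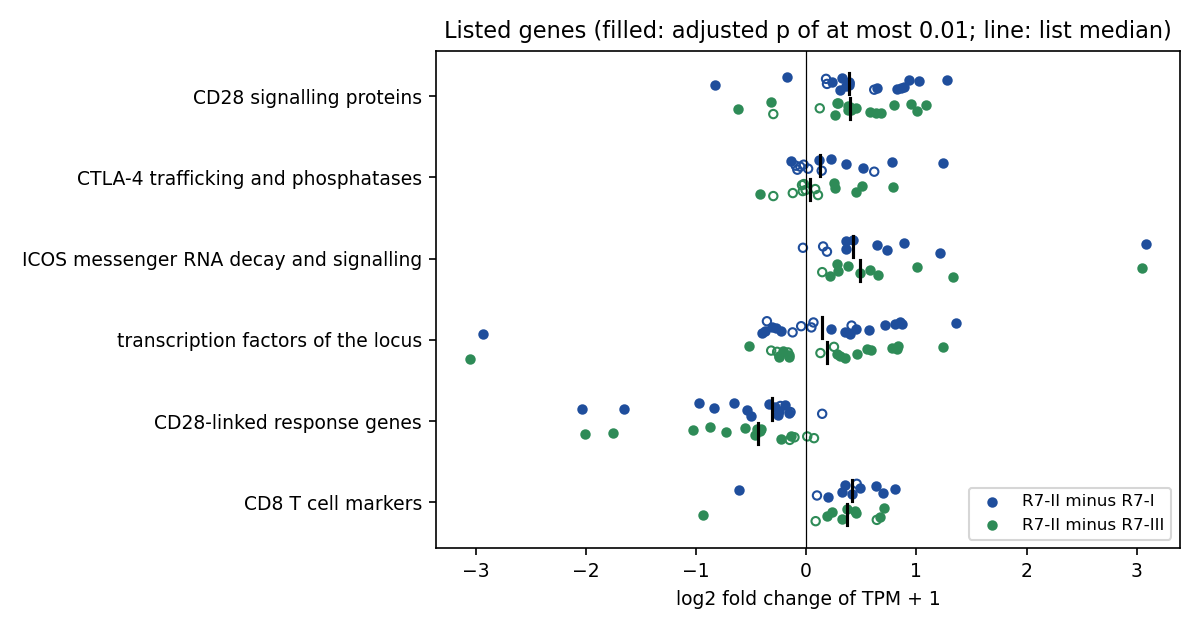
Log2 fold change of TPM + 1 (horizontal axis) of the genes tested in 6 of the lists, by list (vertical axis), for R7-II minus R7-I and R7-II minus R7-III. Each point is a gene, filled where the adjusted p was at most 0.01, and black lines are list medians: the response genes linked to CD28 lie mostly below 0 and the CD28 signalling genes mostly above it.

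CD8 T cell markers were abundant in every library of the sort and several were higher in R7-II. Of 11, 8 rose and 1 fell against each other clone, where 40.6% and 35.6% of all genes rose. After median-of-ratios scaling 6 and 7 rose, where 27.8% and 26.7% of all genes did. Their summed level was 4072 to 4120 TPM in R7-II, 3214 to 3305 TPM for R7-I and 3547 to 3627 TPM for R7-III. Cd3g, Cd8b1 and Cd3d rose by 0.81, 0.69 and 0.64 on the log2 scale against R7-I. The signalling genes Lat and Zap70 were at 0.42 and 0.20 against R7-I, where Zap70 did not pass with median-of-ratios scaling (0.04, adjusted p = 0.374). Against R7-III Lat was at 0.33, and Zap70 at 0.09 did not pass (limma adjusted p = 0.0503). Cd5, an inhibitory receptor used as a readout of self-reactivity, fell with log2 fold changes of -0.61 and -0.94.

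CTLA-4 and ICOS are also abundant in regulatory T cells, so markers of these and other cells were read beside the receptors. Of 11 markers of CD4 and regulatory T cells, 9 were tested, of which 2 rose and 2 fell against R7-I (1 fell without either R7-I replicate 1, 2 or 3 or R7-II replicate 2 or 3), and 3 rose and 3 fell against R7-III, where 40.6 and 35.6% of all genes rose and 15.5 and 18.0% fell. Their sum was 419 to 450 TPM in R7-II, 466 to 484 TPM for R7-I and 453 to 483 TPM for R7-III. Foxp3, the factor that defines regulatory T cells, was at 1.01, 0.62 and 1.07 TPM in R7-II, 0.29, 0.56 and 0.42 TPM for R7-I and 0.18, 0.29 and 0.30 TPM for R7-III, with log2 fold changes of 0.41 and 0.59 (limma adjusted p = 0.0251 and 4.10e-03), the second not passing without R7-II replicate 1 or 3 or any R7-III library (adjusted p 0.0106 to 0.0186). Cd4 was at 0.95 to 1.00 TPM in R7-II and 0.22 to 0.53 TPM elsewhere, too low to be tested. Gpr83 rose by 2.45 and 2.55 and Tnfrsf18, the receptor GITR, by 0.80 and 0.67, while Il2ra fell. Ccr8, a chemokine receptor of regulatory T cells, stayed below 2 TPM in every library and fell with log2 fold changes of -0.53 and -1.03, the first of which was lost when any 1 R7-I library or R7-II replicate 2 or 3 was left out. Within R7-II, Ctla4 spanned 60.3 to 66.1 TPM, Icos 75.5 to 83.3 TPM and Cd28 234 to 253 TPM. The order of 3 libraries this close cannot show a link to Foxp3, whose values are near 1 TPM. The part of regulatory T cells in the receptor values was not tested.

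Markers of B cells, MHC class II genes and several myeloid markers were higher in R7-II. All 8 B cell markers tested of 9 rose against both clones, where 40.6% of all genes rose against R7-I and 35.6% against R7-III. Against R7-I, 7 to 8 of them rose with single libraries left out. Their summed level was 35.4 to 74.0 TPM in R7-II, 8.65 to 15.6 TPM for R7-I and 5.41 to 7.90 TPM for R7-III. Cd79a and Cd79b, of the B cell receptor, rose by 1.99 and 2.11 on the log2 scale against R7-I and by 2.64 and 2.58 against R7-III, and Ms4a1 by 1.54 and 1.88. All 7 MHC class II genes rose against both clones, with sums of 113 to 183 TPM in R7-II, 32.4 to 50.3 TPM for R7-I and 24.3 to 28.1 TPM for R7-III. Against R7-I, 5 to 7 rose with single libraries left out and 6 after median-of-ratios scaling, with which 27.8% of all genes rose. Cd74, the invariant chain, was at 87.0, 55.4 and 91.3 TPM in R7-II, and its log2 fold changes were 2.10 and 2.74. H2-Aa, H2-Ab1 and H2-Eb1 rose by 1.91, 1.78 and 1.79 against R7-I.

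Of 13 myeloid and dendritic cell markers, 10 were tested, of which 6 rose and 1 fell against R7-I (3 rose without R7-I replicate 1) and 7 rose and 1 fell against R7-III (4 rose without R7-III replicate 1 or after median-of-ratios scaling). Over all genes 40.6% rose and 15.5% fell against R7-I, and 35.6% rose and 18.0% fell against R7-III. With median-of-ratios scaling 26.7% of all genes rose against R7-III. Lyz2, the lysozyme of macrophages and granulocytes, was at 28.2, 13.8 and 56.7 TPM in R7-II, 0.25, 0.45 and 0.65 TPM for R7-I and 2.43, 1.57 and 1.66 TPM for R7-III. Its log2 fold changes of 4.34 and 3.35 were larger than those of Ctla4 (limma adjusted p = 3.34e-06 and 2.15e-05). Fcer1g rose by 1.74 and 1.56, Tyrobp by 1.30 and 1.31, and Csf1r, the receptor of macrophage growth factor, by 1.33 and 1.37, at 1.91 to 4.49, 1.86 to 5.27 and 0.66 to 3.83 TPM in R7-II. Leaving out R7-I replicate 1 ended the calls of Tyrobp and Csf1r against R7-I, and leaving out R7-III replicate 1 that of Tyrobp against R7-III (adjusted p 0.0110 to 0.0119). Zbtb46, a factor of dendritic cells, fell with log2 fold changes of -0.91 and -0.73 (limma adjusted p = 8.26e-05 and 4.21e-04), and the dendritic cell genes Itgax and Flt3 were at or near 0 in every library. The sum of the list was 102 to 165 TPM in R7-II, 65.2 to 74.4 TPM for R7-I and 65.5 to 73.6 TPM for R7-III. Cst3, which many cells make, took 59.8 to 70.5 TPM of the sum in the other 6 libraries and 76.0 to 82.2 TPM in R7-II.

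R7-II replicate 2 had the lowest sum of each of these lists within its clone, and Ctla4, Cd28 and Icos there were at 60.3, 238 and 79.9 TPM. Without that library the log2 fold changes against R7-I were 2.34 for Ctla4, 0.55 for Cd28 and 1.07 for Icos. The part of these other cells in the receptor values was not tested.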

How the data were processed

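Libraries of polyA RNA (200 ng RNA each) from tetramer-sorted CD8 T cells activated with ROP7 peptide were sequenced for 3 clones, 3 libraries each, as single-end reads without strand. The authors aligned and counted the reads with RSEM 1.2.11 on RefSeq genes of mm10 and deposited TPM values per gene symbol with 2 decimals, which sum all isoforms of a gene and keep no depth. They tested counts with DESeq2 1.8.1, and those counts were not used here. The sources used here do not say which cell sorter handled which sample.

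From the TPM values, log2(TPM + 1) of 11330 genes with a maximum TPM above 1 was fitted over 9 libraries together (limma 3.58.1 under R 4.3.3, eBayes with a trend). P-values were adjusted by Benjamini-Hochberg, and 0.01 was the threshold. The exact permutation tests of the F statistic, which has no direction, had a threshold of 0.05 and were run in Python 3.11.15 with numpy 2.4.6 and pandas 2.3.3. Scripts were tested on simulated data. The members and lists were chosen with earlier results of these data known, and some genes stand in 2 lists. Named genes were the receptor genes, up to 4 genes per list with the largest change that passed in both R7-II comparisons with libraries not overlapping, the 3 most abundant genes per list, the ligands, Foxp3, Cd4, the 5 genes most like each receptor gene, and the genes tested near the locus, except some that are not reported here. Malt1, Akt1, Ptpn6, Rc3h1, Rc3h2, Foxo1, Nfatc1, Nfatc2, Nfatc3, Nfat5, Slc3a2, Itgax and Flt3 were added outside this rule after their values were seen. Alternatives were other pseudocounts, filters, scalings, moderation, thresholds, fits of fewer clones, a replicate block and each library left out. The values relative to Cd8a and Cd3e and the ratio of mean TPM were chosen after seeing the data.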

Additional observations from a re-analysis of the deposited data

How the results depend on the processing

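All 15 results of Ctla4, Cd28 and Icos kept their direction in each of the 264 alternatives computed. They kept their side of the threshold in each that gave a p-value, which the ratio of mean TPM did not. The threshold was 0.01 for limma and 0.05 for the exact permutation tests. The adjusted permutation p lay above 0.01 as reported and ranged from 0.00857 to 0.0393 for the Ctla4 level, 0.00714 to 0.0393 for Cd28 and 0.00714 to 0.0278 for Icos, and from 0.00714 to 0.0286 for the ratios. With single libraries left out, the log2 fold changes of R7-II minus R7-I lay between 2.22 and 2.39 for Ctla4, 0.48 and 0.59 for Cd28 and 1.04 and 1.11 for Icos, and those of R7-II minus R7-III between 2.08 and 2.24, 0.43 and 0.48, and 1.16 and 1.23. No pairing by replicate number was seen: deviations of same-numbered libraries correlated between -0.04 and 0.09 in 9 pairs. This cannot show whether same-numbered samples were handled together, which the labels do not say. With the replicate number as a replicate block, Ctla4 kept 2.31 against R7-I (limma adjusted p = 2.25e-07), the exact permutation p was 0.0278 for each receptor gene and ratio, the smallest it can be, and no call of the receptor genes changed. Of 44 list counts, median-of-ratios scaling moved the CTLA-4 trafficking genes lower from 1 to 6 against R7-I and from 1 to 5 against R7-III, the ICOS list genes lower from 0 to 1 against R7-I, and the myeloid markers higher from 7 to 4 against R7-III. Over all genes that scaling moved the number lower from 1754 to 3036 against R7-I and from 2039 to 3006 against R7-III. The number higher moved from 4604 to 3147 and from 4038 to 3027. Leaving out single libraries gave 1 to 2 ligands higher in either comparison, 4 to 7 transcription factors lower against R7-III, 0 to 1 response genes higher and 1 to 2 CD4 and regulatory T cell markers lower against R7-I, and 3 to 8 myeloid markers higher against R7-I and 4 to 8 against R7-III. Of 3283 alternatives for other named genes, 3118 kept their call, 129 no longer passed, 24 newly passed and 12 changed sign. The sign changes were -0.039 for Ap2m1 and -0.0099 for Slc3a2 against R7-I and -0.025 for Zap70 and -0.040 for Slc3a2 against R7-III with median-of-ratios scaling, 0.016 for Rc3h1 against R7-I without R7-II replicate 2 (from -0.079 to 0.016 over the libraries left out), 0.015 for Ap2m1 against R7-III without R7-II replicate 3 (from -0.047 to 0.015 over the libraries left out), and, with quantile normalization, 0.025 for Ppp2r1a against R7-I and 0.028 for Ap2m1, 0.054 for Arf1, 0.047 for Ppp2r1a, -0.033 for Cd80 and -0.031 for Rc3h1 against R7-III. With quantile normalization Arf1, Cd80, Icosl, Lrba, Nbeal1, Nfatc2, Rc3h2, Csf1r, Tyrobp and Cst3 no longer passed against R7-I, nor Cd86, Icosl, Nfatc2, Foxp3, Lrba, Nfkb1, Irf4, Stat5a and Myc against R7-III. The cause was not tested. The number of genes passing between R7-III and R7-I, 953, lay between 436 (without R7-I replicate 1) and 1120 with single libraries left out. TPM values keep no depth, so counting error is unknown, which matters most for genes near 1 TPM such as the ligands and Foxp3.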

Other observations

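The genes whose log2(TPM + 1) values followed each receptor gene most closely over the 9 libraries are given as a description, since the 3 R7-II libraries stand apart for a large share of genes. For Ctla4 they were Phc1, Herc3, Zfp317, Ltb and 2810474O19Rik, with Pearson r between 0.996 and 0.997, and 1622 genes had r above 0.95. Ltb, which encodes lymphotoxin beta, was at 285, 219 and 306 TPM in R7-II and at 34.4 to 47.2 TPM in the other 6 libraries, with log2 fold changes of 2.81 and 2.73 (limma adjusted p = 7.94e-08 and 1.14e-07). For Cd28 they were Ppm1a, Cnot6, Ccbl1, Wipi2 and Zfp628, with r of 0.992 to 0.994, and 1185 genes had r above 0.95. For Icos they were Golga5, Pik3cd, Wipf2, Mettl23 and Sh3bp5, with r of 0.993 to 0.995, and 1030 genes had r above 0.95. Pik3cd, the PI3-kinase subunit, shared the order of Icos, with R7-III at 228 to 235 TPM below R7-I at 249 to 253 TPM, but that comparison did not pass (log2 fold change -0.12, limma adjusted p = 0.0378).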
